A study of Mus musculus with 24 samples.

Results

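The genes described here encode the proteins that build very-low-density lipoprotein (VLDL) in the liver, and the mark measured was acetylation of histone H3 at lysine 27 (H3K27ac), which is found at active promoters and enhancers. The set is Apob, Mttp, Tm6sf2, Pla2g12b and Cideb, and its regions are all those of the deposited table whose annotated gene name is one of these 5. This gave 31 regions of 63686, of which 24 were assigned to Apob, 4 to Mttp and 1 each to Tm6sf2, Pla2g12b and Cideb. H3K27ac ChIP-seq was made from whole frozen liver of male C57BL/6J mice aged 9 weeks, in 4 groups of 3 libraries. All mice of all groups carried the Gata4 fl/fl allele, so the controls were floxed too. At 8 weeks knockout mice received AAV8-Tbg-Cre, in which the hepatocyte promoter Tbg drives Cre recombinase, and control mice received an empty AAV8 without Cre, and the livers were taken 7 days later. Fasted mice went without food for 12 h from the evening. Refed mice were fasted for 12 h from the morning and then ate a high-sucrose diet (69% sucrose, 10% fat) for 12 h from the evening, and all groups were killed in the same morning hour. The groups named fasted and refed therefore differ in food, in diet and in the clock time of the fast, which cannot be told apart.

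In the hepatocyte, apolipoprotein B is made at the endoplasmic reticulum (ER) and needs lipid while it is being translated. Microsomal triglyceride transfer protein, the product of Mttp, loads the first lipid, and the particle is then enlarged before it leaves for the Golgi in COPII carriers. Tm6sf2 is an ER and Golgi membrane protein needed for VLDL lipidation, Pla2g12b is a catalytically inactive member of the secreted phospholipase family that supports VLDL expansion in mouse liver, and Cideb is a lipid droplet and ER protein needed for VLDL lipidation. Without Apob or Mttp function hepatocytes secrete little VLDL. GATA4 is a zinc-finger transcription factor of hepatocytes that binds GATA motifs.

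Promoter sequences are shown for the start with a GATA4 peak over it and for the start with the strongest H3K27ac region. They are the 250 bases before the RefSeq start on GRCm38.p6, with matches of GATAA or its complement in capitals, and 4 of the 5 genes were matched in the RefSeq table. The Pla2g12b bases lie at chr10:59403435-59403684 on the plus strand, and the Apob bases at chr12:7977427-7977676 on the plus strand.
Pla2g12b: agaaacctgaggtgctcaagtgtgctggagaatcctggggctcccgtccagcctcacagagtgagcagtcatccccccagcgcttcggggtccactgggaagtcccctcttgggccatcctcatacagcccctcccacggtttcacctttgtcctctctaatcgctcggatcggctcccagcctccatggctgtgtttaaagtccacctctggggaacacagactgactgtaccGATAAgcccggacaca
Apob: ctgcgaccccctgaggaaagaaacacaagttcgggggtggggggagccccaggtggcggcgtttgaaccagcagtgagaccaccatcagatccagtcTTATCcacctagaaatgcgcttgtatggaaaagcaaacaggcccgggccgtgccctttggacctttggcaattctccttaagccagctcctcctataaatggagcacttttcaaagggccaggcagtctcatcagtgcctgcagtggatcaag
The core GATAA was chosen after the sequences were seen, and 22.6% of 32851 RefSeq promoters of the same length hold it on either strand. It starts 16 bases before the Pla2g12b start and 153 bases before the Apob start, where it is on the minus strand, and it is not in the windows of Mttp and Cideb. The windows were taken by gene symbol and were not joined by position to the mm9 regions. Since the Mttp locus has more than 1 annotated start, its window may belong to another start than its H3K27ac region. The longer GATA motif AGATAA, which holds that core and is in 9.99% of all promoters, matched none of the 4 windows. No match was found in them either for the forkhead motif GTAAACA (3.17% of promoters), the HNF4A motif CAAAGTCCA (0.384%), the SREBP motif TCACNCCAC (1.05%), the nuclear receptor hexamer AGGTCA (14.0%) or the HNF1 core GTTAAT (6.43%), on both strands. The deposited table lists a GATA4 ChIP peak at 2 of the 31 regions, against 8.31% of all regions. These peaks come from no library of this series, and their genotype and feeding state are not given. The Pla2g12b peak (mm9 chr10:58865651-58866922) reached from 782 bases before to 488 bases after the annotated start. The Mttp peak (mm9 chr3:137791902-137792587) lay 1754 to 2439 bases past the annotated start nearest to the Mttp region.

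Between 22.2 and 30.4 M reads per library fell in regions. Values below are normalized reads per region, on a scale where 1 read is worth 0.836 to 1.15, and log2 differences are of the value plus 1. A region is called when its limma p, adjusted by Benjamini-Hochberg over all 63686 regions, is under 0.05. Libraries of 1 group carry the same number in their labels and other groups carry other numbers, and what the number stands for is not stated. Whatever it marks cannot be told apart from the group, and p-values measure the spread between these libraries. At Gata4 itself no region was called in either genotype comparison; the strongest, over the start, had 3594 ± 168 in control and 4071 ± 167 in knockout fasted liver (SD, n = 3), which is a measure of acetylation and checks no deletion. Hepatocyte markers had region means from 2518 to 17336 in 6 of 7 listed genes, above every other list. All groups are mixtures of liver cells, in which fewer cells of a type and less mark per cell cannot be told apart.

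Each of the 5 genes had 1 assigned region that spanned the annotated start nearest to it, and these regions held high levels. Per kb of region, the mean of 12 libraries was 310 for Pla2g12b, 287 for Cideb, 269 for Apob, 265 for Mttp and 265 for Tm6sf2, against a median of 210 over the 12381 regions that span a start. Their percentiles per kb among those regions ran from 68.4 for Tm6sf2 to 81.4 for Pla2g12b. The start regions were not narrow, from 3.71 kb at Pla2g12b to 10.3 kb at Apob. Apob, Mttp and Tm6sf2 are neighbours in that order, and their levels per kb lie closer together than the libraries of each do.

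**Figure D1:**
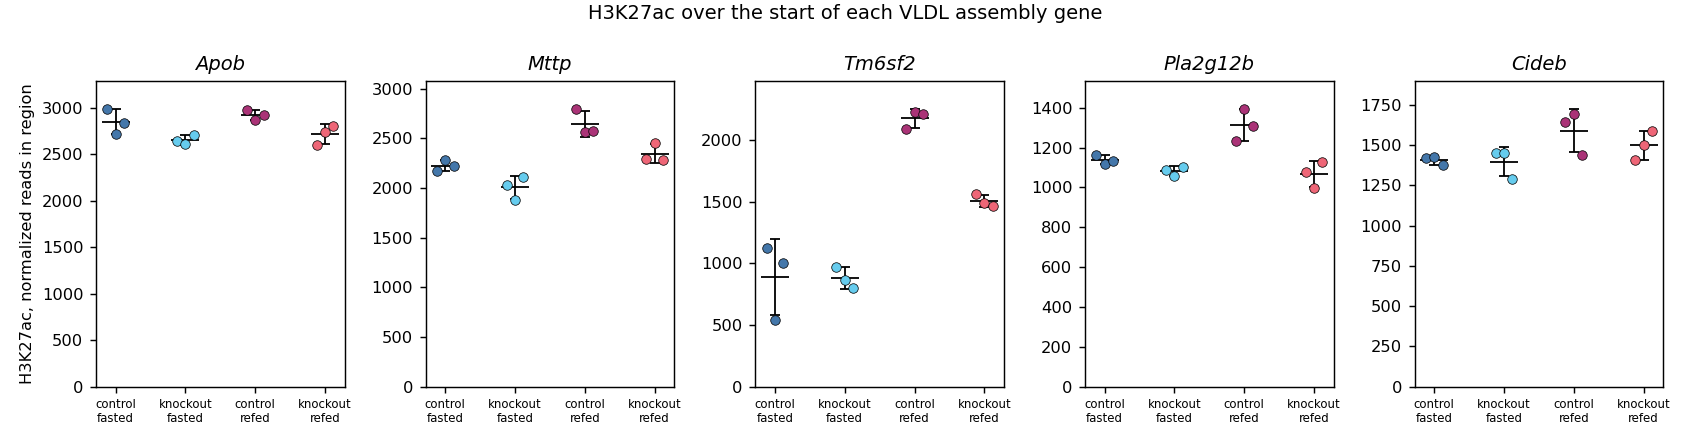
Normalized H3K27ac reads (y axis, from 0) in the region over the start of each gene, for each library (points) of the 4 groups, with the mean and SD (n = 3) as bars. Tm6sf2 is the gene whose refed libraries stand farthest above its fasted ones, and the Apob libraries lie between 2594 and 2988 in every group.

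Tm6sf2 had the clearest response to refeeding of the 5 start regions (mm9 chr8:72593575-72598725, centred 673 bases before the start). Its values were 1128, 543 and 1007 in control fasted liver and 2091, 2230 and 2217 in control refed liver. They were 974, 866 and 802 in knockout fasted liver and 1562, 1491 and 1467 in knockout refed liver. Every refed library was above every fasted library, and every knockout refed library was below every control refed library. Refeeding raised the region 2.56-fold in control liver (log2 difference 1.35 ± 0.19 SE, limma adjusted p = 6.88e-05) and 1.72-fold in knockout liver (0.78 ± 0.19, adjusted p = 0.00689).

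In refed liver the Tm6sf2 region stood at 2179 ± 76.5 in control and 1507 ± 49.4 in knockout (SD, n = 3), a log2 difference of -0.53 with a 95% interval of -0.93 to -0.13. It did not pass the threshold (limma adjusted p = 0.147). This call turns on 1 library: control fasted replicate 2, at 543, widens the shared spread, and without it the adjusted p was 0.0117; with only the 2 refed groups fitted it was 0.0126. The authors' deposited table lists the region as lower in knockout refed liver, with a log2 fold of -0.65 and a false discovery rate of 4.25e-06. In fasted liver the groups overlapped, at 892 ± 309 and 881 ± 86.9, with a difference of 0.04 (-0.35 to 0.44). Its sign is opposite to that of the means because it is taken on averaged log2 values, which the library at 543 lowers more. The interaction, the difference between genotypes in the refeeding response, was -0.58 ± 0.26 with an adjusted p of 0.512 by limma, and so was not called; without control fasted replicate 2 it was -0.25, with an adjusted p of 0.527. The genotype difference averaged over feeding states was -0.24 ± 0.13 (adjusted p = 0.302), and -0.41 without that library (adjusted p = 0.00599).

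Mttp carried the main signal assigned to it in 1 region of 8.70 kb over the nearest annotated start (mm9 chr3:137789564-137798261). The values were 2172, 2287 and 2220 in control fasted, 2799, 2562 and 2576 in control refed, 2034, 1878 and 2109 in knockout fasted and 2297, 2456 and 2285 in knockout refed liver. The fasted and refed libraries did not overlap within either genotype. The region rose by 0.25 ± 0.07 in control liver (limma adjusted p = 0.0127) and by 0.23 ± 0.07 in knockout liver (adjusted p = 0.0255). The first call is lost without control refed replicate 1 (adjusted p = 0.0518), and the second in 6 of 20 alternatives, with adjusted p up to 0.123. The authors' deposited table lists 8 of the 31 regions as changed between fasted and refed control liver, and this region is not among them.

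Knockout values of the Mttp start region were lower in both feeding states, by a log2 difference of -0.15 (95% interval -0.30 to -0.00480) in fasted and -0.17 (-0.32 to -0.03) in refed liver. Neither was called, with limma adjusted p of 0.356 and 0.196. The interaction was -0.02 ± 0.10. The other 3 Mttp regions were centred 12.7, 23.4 and 24.8 kb past the same start and had means of 7.74 to 47.5. Limma called none of these 3 in any comparison. The authors' deposited table lists 2 of them as changed between fasted and refed control liver, with adjusted p of 0.000695 at 24.8 kb and 0.00183 at 23.4 kb. A further region at mm9 chr3:137805159-137808263 starts 6897 bases from the Mttp region, has the gene name Trmt10a and had a mean of 1045. It is also annotated as the promoter of a transcript in whose intron 3 of 19 the Mttp start region lies. The Mttp start used here is therefore not the only annotated start of the locus. This further region reached 1007 ± 54.8 in control fasted and 1175 ± 64.9 in control refed liver. No comparison of it was called (refeeding in control liver, limma adjusted p = 0.0646).

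Pla2g12b, whose start lies under a GATA4 peak and whose promoter is printed above, had the following values in its 1 region (mm9 chr10:58865071-58868784). Control fasted libraries stood at 1163, 1119 and 1133, control refed libraries at 1234, 1395 and 1308, knockout fasted libraries at 1086, 1058 and 1104 and knockout refed libraries at 1076, 999 and 1128. Control refed liver was above the other 3 groups in every library. No comparison passed the threshold. Refeeding gave 0.20 ± 0.08 in control liver (limma adjusted p = 0.0595, and 0.0426 to 0.0464 with median-ratio scaling, edgeR with median-ratio factors or without control refed replicate 1) and -0.02 ± 0.08 in knockout liver (adjusted p = 0.875). In refed liver the knockout difference was -0.30 with a 95% interval of -0.46 to -0.13 (adjusted p = 0.0614). That p fell to between 0.0402 and 0.0423 with median-ratio scaling or with edgeR on recovered reads. The authors' deposited table lists the region in that comparison with a log2 fold of -0.41 and a false discovery rate of 0.0286. The interaction was -0.22 with an interval of -0.46 to 0.01.

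Cideb had 1 region (mm9 chr14:56374372-56379505), at 1406 ± 28.3 in control fasted, 1589 ± 136 in control refed, 1397 ± 90.6 in knockout fasted and 1499 ± 90.4 in knockout refed liver. None of the 6 comparisons was called. Its refeeding difference was 0.17 (95% interval -0.004 to 0.35) in control liver and 0.10 (-0.07 to 0.28) in knockout liver, and its genotype differences were -0.01 in fasted and -0.08 in refed liver. The interval in refed liver, -0.26 to 0.09, bounds the fall that the data allow.

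**Figure D2:**
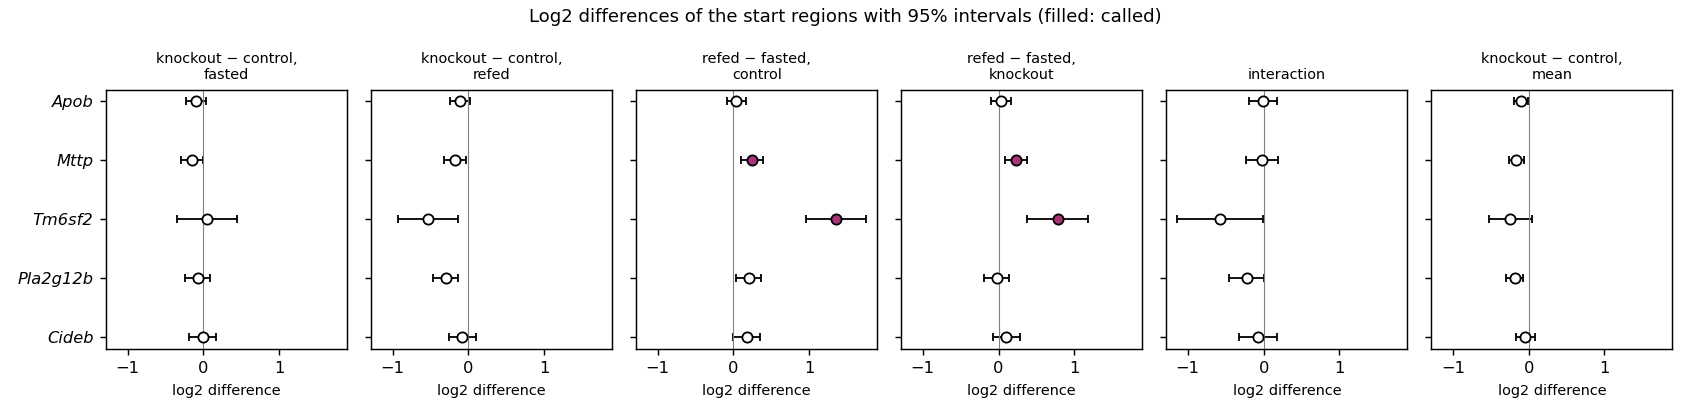
Log2 differences of the 5 start regions in each comparison (x axis, log2 of the normalized value plus 1) with 95% intervals from the limma fit; filled points are called. The 4 filled points are Tm6sf2 and Mttp in the refeeding comparisons of both genotypes.

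The Apob start region was the strongest of the set (mm9 chr12:7982165-7992508, 10.3 kb, centred 2853 bases past the start). Its values were 2988, 2722 and 2831 in control fasted and 2978, 2866 and 2926 in control refed liver. In knockout liver they were 2639, 2608 and 2709 fasted and 2594, 2741 and 2804 refed. Knockout libraries were below control libraries in each feeding state without overlap. No comparison was called. Refeeding gave 0.04 (95% interval -0.09 to 0.17) in control and 0.03 (-0.10 to 0.16) in knockout liver, so a rise of the Mttp size, 0.25, is outside both intervals. The knockout differences were -0.10 ± 0.06 in fasted and -0.11 ± 0.06 in refed liver.

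Of the 24 Apob regions 7 were called with refeeding in control and 5 in knockout liver, 29.2% and 20.8%, which is near the 30% and 24.7% of all regions called; all were away from the start. The regions lie from 161 kb before to 112 kb after the start, and the 4 strongest hold 78.1% of their signal, while 12 have means under 50. Distances here are those from the annotated start to the region's centre, and the assignment to Apob is by nearest start, not by contact. Upstream, the region 101.4 kb before the start (mm9 chr12:7882329-7883818) fell with refeeding in both genotypes. Control fasted libraries had 141, 116 and 126 and control refed libraries 34.3, 52.9 and 50.6. Knockout fasted libraries had 174, 145 and 150 and knockout refed libraries 41.6, 47.8 and 56.0. No refed library reached any fasted one. The log2 differences were -1.48 ± 0.21 (limma adjusted p = 7.75e-05) in control and -1.68 ± 0.21 (adjusted p = 4.14e-05) in knockout liver.

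A further region at 49.9 kb before the start fell by 0.56 ± 0.17 in control liver (adjusted p = 0.0193) and by 0.54 ± 0.17 in knockout liver (adjusted p = 0.0288), by limma; each call is lost in 4 of 20 alternatives, with adjusted p up to 0.0841 and 0.115. Its knockout libraries were above the control libraries in both states, at 155 ± 17.6 against 115 ± 9.80 in fasted and 106 ± 6.98 against 77.9 ± 11.3 in refed liver, with no call (adjusted p = 0.284 and 0.175). The region at 46.7 kb, a weak one, fell from 39.6 ± 3.65 to 11.8 ± 6.37 in knockout liver (-1.82 ± 0.47, adjusted p = 0.0101), and was 19.1 ± 3.94 and 10.2 ± 2.59 in control liver. The authors' deposited table lists that weak region as higher in knockout fasted liver, with a false discovery rate of 0.0220. At 58.2 kb before the start, a strong region fell from 1834 ± 222 to 1477 ± 223 in control liver (-0.32 ± 0.10, adjusted p = 0.0312), and 8 of 20 alternatives lose that call. The authors' deposited table lists neither the region at 58.2 kb nor that at 49.9 kb as changed between fasted and refed control liver. It does list the region at 101.4 kb before the start (authors' adjusted p = 3.18e-08) and the Tm6sf2 start region (authors' adjusted p = 2.44e-05).

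The 8 regions between 80 and 40 kb before the start shared a direction with refeeding and, in fasted liver, between genotypes. With refeeding all 8 were below 0 in both genotypes, with a median of -0.28 in control and -0.40 in knockout liver, while 52.3% and 48.0% of all regions were below 0. In the fasted comparison of knockout with control all 8 were above 0, with a median of 0.37 against 0.04 for all regions. Of all regions 55.9% were above 0 there. In refed liver 7 of the 8 were above 0, with a median of 0.09 against 0.10 for all regions, and after median-ratio scaling 4 were above and 4 below 0. These 8 were picked after their values were seen, so no test was made of them. Several adjoin, such as mm9 chr12:7915225-7922004 and chr12:7922032-7930555, so the 8 are not independent observations. Their means ran from 18.9 to 1699. Between genotypes in fasted liver the strongest of them, at 58.2 and 65.9 kb (means 1699 and 1387), had 0.07 and 0.13. The weak ones at 46.7 and 43.1 kb (means 20.2 and 18.9) had 1.03 and 0.91. Outside the span, the strong region 28.5 kb before the start (mean 1157) had -0.14 in fasted and -0.13 in refed liver, with no call. Under median-ratio scaling or quantile normalization 7 of the 8 were below 0 on refeeding in control liver.

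Of the 5 regions downstream of the gene 3 rose with refeeding in control liver and 2 in knockout liver, where 13.2% and 13.3% of all regions were called higher. The one 43.2 kb after the start rose from 131 ± 19.9 to 264 ± 56.5 in control (0.99 ± 0.19, limma adjusted p = 0.00119) and from 149 ± 16.2 to 241 ± 52.8 in knockout liver (0.67 ± 0.19, adjusted p = 0.0185, lost in 3 of 20 alternatives). The one at 82.6 kb was at the edge of detection, at 2.52 ± 2.93 in control fasted and 21.9 ± 7.45 in control refed liver. In knockout liver the libraries had 10.0, 0 and 0 fasted and 19.1, 28.5 and 7.54 refed, so these groups overlapped. Limma called the region in both genotypes (adjusted p = 0.0337 and 0.0460), and the calls were lost in 6 and 11 of 19 alternatives. The region 10.2 kb after the start, with a mean of 19.7, fell in control liver (-1.34 ± 0.48, limma adjusted p = 0.0475), and 12 of 19 alternatives lose this. The authors' deposited table lists the regions at 10.2, 43.2, 82.6 and 112.3 kb as changed between fasted and refed control liver. The authors' adjusted p were 0.00498, 5.37e-06, 2.46e-09 and 3.39e-08.

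The region 112.3 kb after the start (mm9 chr12:8095787-8097830) was the 1 region of the set called in a comparison of knockout with control within a feeding state. Control fasted libraries had 116, 153 and 122 and control refed libraries 282, 296 and 255. Knockout fasted libraries had 196, 149 and 165 and knockout refed libraries 134, 183 and 180. Only the control refed libraries stand apart from the rest. Refeeding raised it by 1.09 ± 0.17 in control liver (limma adjusted p = 0.000167) and gave -0.04 ± 0.17 in knockout liver. In refed liver it was lower in knockout, 166 ± 27.6 against 277 ± 20.9 (-0.75 ± 0.17, adjusted p = 0.0346), and leaving out any 1 of the 6 refed libraries loses that call, with adjusted p from 0.0572 to 0.119. The interaction, -1.13 with a 95% interval of -1.64 to -0.63, was not called (limma adjusted p = 0.106). The authors' deposited table lists the region with a false discovery rate of 0.00149 for the interaction. For knockout against control in refed liver it gives a log2 fold of -0.86 and a false discovery rate of 0.000381.

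**Figure D3:**
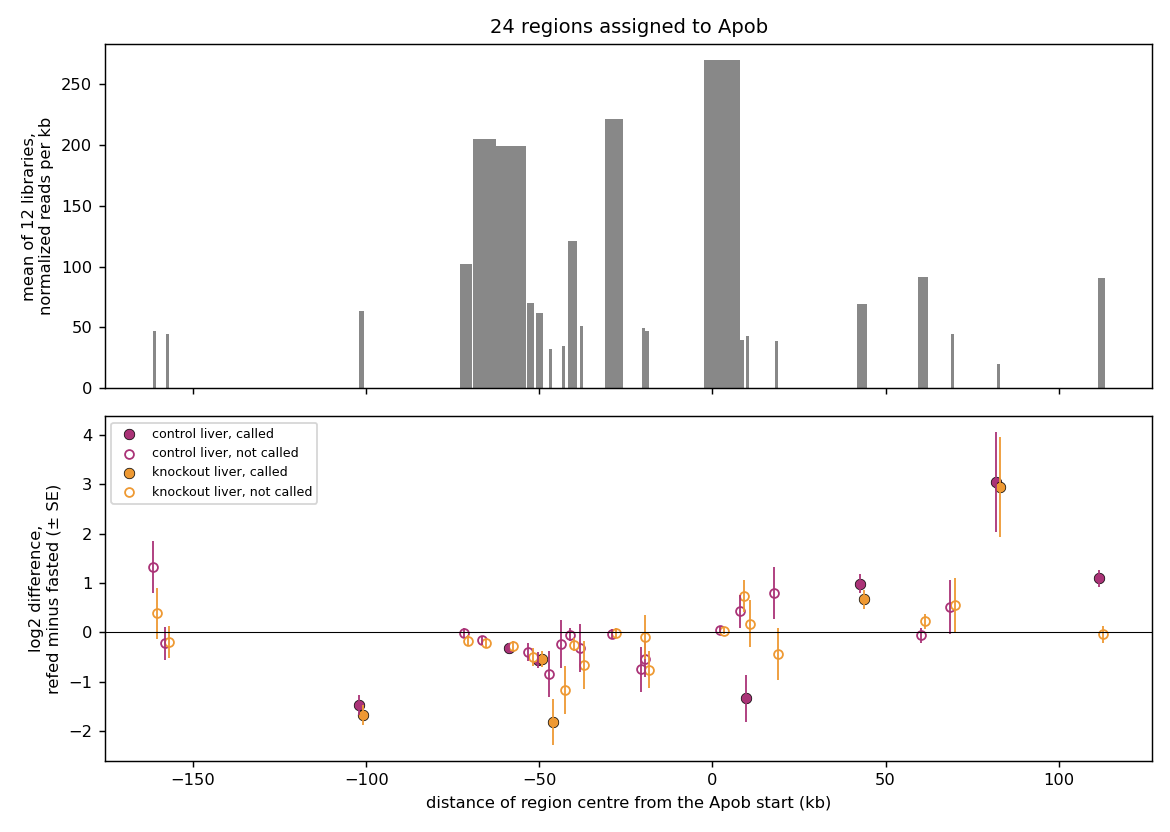
Apob regions by the distance of their centre from the start (x axis, kb): the upper panel gives the mean of 12 libraries per kb, with bar widths equal to the regions' widths down to a minimum, and the lower panel the log2 difference of refed minus fasted liver with SE, in control and knockout. Filled points are called; those before the start lie below 0 and most of those after it above 0.

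**Figure D4:**
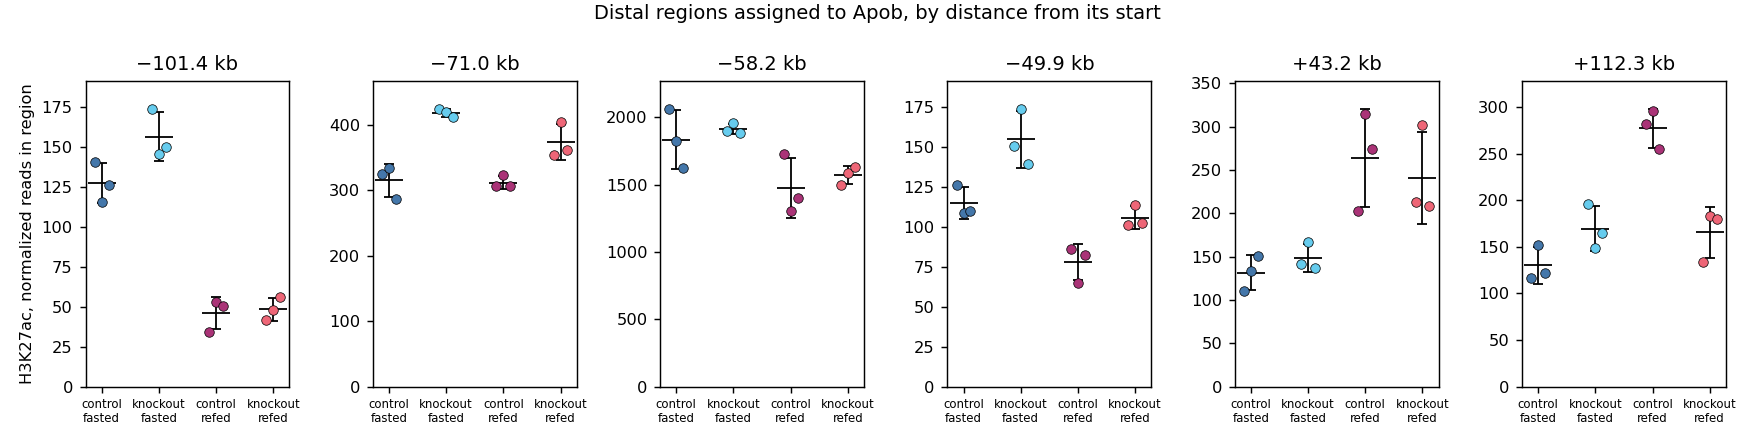
Normalized reads (y axis, from 0) of the called Apob regions with a mean of at least 50, by library (points) and group mean with SD (n = 3); the title gives the distance of the centre from the start. At 112.3 kb after the start the control refed libraries, 255 to 296, lie above all others.

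Over all 31 regions, 9 changed with refeeding in control liver, 5 higher and 4 lower, where 30% of all regions were called, 13.2% higher and 16.8% lower; 18 of the 31 had groups that did not overlap, against 42.4% of all regions. In knockout liver 7 changed, 4 higher and 3 lower, where 24.7% of all regions were called, 13.3% higher and 11.4% lower; 14 did not overlap, against 42.6%. The shares of the members called, 29.0% and 22.6%, are near those backgrounds. Of the 5 start regions 2 were called in each genotype, where 28.8% and 30.6% of start-spanning regions were. With edgeR on recovered reads and TMM, control liver had 5 higher and 2 lower, and knockout liver 2 higher and 4 lower. In fasted liver 0 of 31 regions were called between genotypes by limma and by edgeR, with 6 at an unadjusted p under 0.05, and 0.557% of all regions were called; 10 of the 31 had groups that did not overlap, against 18% of all regions. In refed liver 1 was called, as lower, against 2.02% of all regions called and 0.297% called lower, and 8 did not overlap, against 23.8%. The interaction had 0 calls by limma and by edgeR, 3 at an unadjusted p under 0.05, and 0.0236% of all regions were called.

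Averaged over the feeding states, knockout against control gave 1 call of 31, the Apob region 71.0 kb before the start, where 3.88% of all regions were called and 2.99% were called higher. It was higher in knockout, at 418 ± 6.24 against 315 ± 25.4 in fasted and 373 ± 27.5 against 311 ± 9.94 in refed liver (0.33 ± 0.07, limma adjusted p = 0.0264). Median-ratio scaling and both edgeR fits lose it and call Pla2g12b instead, as lower in knockout; it is lost in 9 of 19 alternatives, with adjusted p up to 0.0714. The median of all regions in refed knockout against control was 0.10 on the log2 scale and 0.02 after median-ratio scaling. Among all regions called there, 85.3% were higher in knockout, against 67.7% after that scaling; for the mean over feeding states the shares were 77.1% and 51.0%, and differences of about that shift cannot be told from it.

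Around the start regions of Mttp, Tm6sf2 and Cideb, regions assigned to other genes lay within 10 kb. Hapln4, a gene 8307 bases from the Tm6sf2 region with a weaker mark (mean 141), rose with refeeding from 47.4 ± 42.5 to 267 ± 45.0 in control liver (2.80 ± 0.40, limma adjusted p = 8.40e-05) and from 69.0 ± 6.69 to 180 ± 23.7 in knockout liver (1.37 ± 0.40, adjusted p = 0.0199). Like Tm6sf2, it had its highest values in control refed liver. At Cideb, the region of Dhrs1 rose in knockout liver, from 869 ± 31.8 to 1104 ± 79.3 (0.34 ± 0.09, adjusted p = 0.0151), while those of Ltb4r1 and Ltb4r2 were not called in any comparison.

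Other genes of the pathway were taken from lists of lipid supply, ER export and apolipoprotein B degradation, with the strongest region for each gene. Of 46 listed genes 42 had a region. With refeeding, 12 were higher and 5 lower in control liver, 40.5% called where 30% of all regions were, and 8 higher and 5 lower in knockout liver, 31.0% called against 24.7%. For 39 of the 42 the region spanned the start, and of all start-spanning regions 28.8% were called in control liver (21.6% higher, 7.15% lower) and 30.6% in knockout liver (24.6% higher, 6.05% lower). The median differences were 0.09 and 0.10. They lay above the medians of all regions, -0.03 and 0.02, and below those of start-spanning regions, 0.13 and 0.17. Between genotypes none of the 42 was called in fasted or refed liver by limma or by edgeR, with 5 and 7 at an unadjusted p under 0.05, and none in the interaction, with 1 at that p. Averaged over the feeding states 1 was called, Mia2, which aids ER export of large cargo, lower in knockout (-0.18 ± 0.05, adjusted p = 0.0482) and lost with median-ratio scaling, quantile normalization and edgeR with TMM.

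Among genes of apolipoprotein B degradation and receptor fate, 6 of 11 rose in control and 5 in knockout liver, and none fell; 21.6% and 24.6% of all start-spanning regions were called higher. The list's median differences were 0.27 and 0.23. Sel1l and Syvn1, parts of the ubiquitin ligase that removes misfolded ER proteins, rose by 0.45 ± 0.09 and 0.28 ± 0.07 in control liver (limma adjusted p = 0.00167 and 0.00393) and by 0.43 ± 0.09 and 0.23 ± 0.07 in knockout liver (adjusted p = 0.00303 and 0.0184). The ER chaperone gene Canx rose by 0.27 ± 0.07 in control liver, and Hspa5, which encodes the ER chaperone BiP, by 0.45 ± 0.09 in knockout liver.

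In ER export 1 of 18 genes rose and 4 fell in each genotype, a share of 27.8% called. The region spanned the start for 16 of the 18, but not for Sec24a and Vti1a. Of all start-spanning regions 28.8% were called in control and 30.6% in knockout liver. In those, 21.6% and 24.6% were called higher and 7.15% and 6.05% lower, so rises were the more frequent there and falls in this list. Lman1, a cargo receptor between ER and Golgi, rose by 0.55 ± 0.07 in control and 0.50 ± 0.07 in knockout liver (limma adjusted p = 1.81e-05 and 6.59e-05). Sec24a, a cargo-binding subunit of the COPII coat, fell from 468 ± 39.4 to 228 ± 11.3 in control liver (-1.03 ± 0.13), in a region 10627 bases into the gene. The SNARE gene Vti1a fell by 0.82 ± 0.16 in control and 0.81 ± 0.16 in knockout liver, in a region centred 26761 bases past the annotated start. Sec23a, the partner of Sec24, fell by 0.20 ± 0.07 in control liver, and Stx5a, a SNARE of ER to Golgi transport, by 0.37 ± 0.09 in knockout liver.

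In lipid supply and lipidation 5 of 13 genes rose and 1 fell in control liver, and 2 rose and 1 fell in knockout liver; the shares called, 46.2% and 23.1%, compare with 28.8% and 30.6% of start-spanning regions. Ces1d, a carboxylesterase that mobilizes stored triglyceride, fell from 1685 ± 337 to 952 ± 146 in control liver (-0.82 ± 0.14, limma adjusted p = 0.000581) and by 0.73 ± 0.14 in knockout liver. Tmem41b and Vmp1, ER lipid scramblases, rose by 0.48 ± 0.10 and 0.36 ± 0.08 in control liver and by 0.45 ± 0.10 and 0.26 ± 0.08 in knockout liver. Soat2, which esterifies cholesterol, rose by 0.39 ± 0.09 in control liver.

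**Figure D5:**
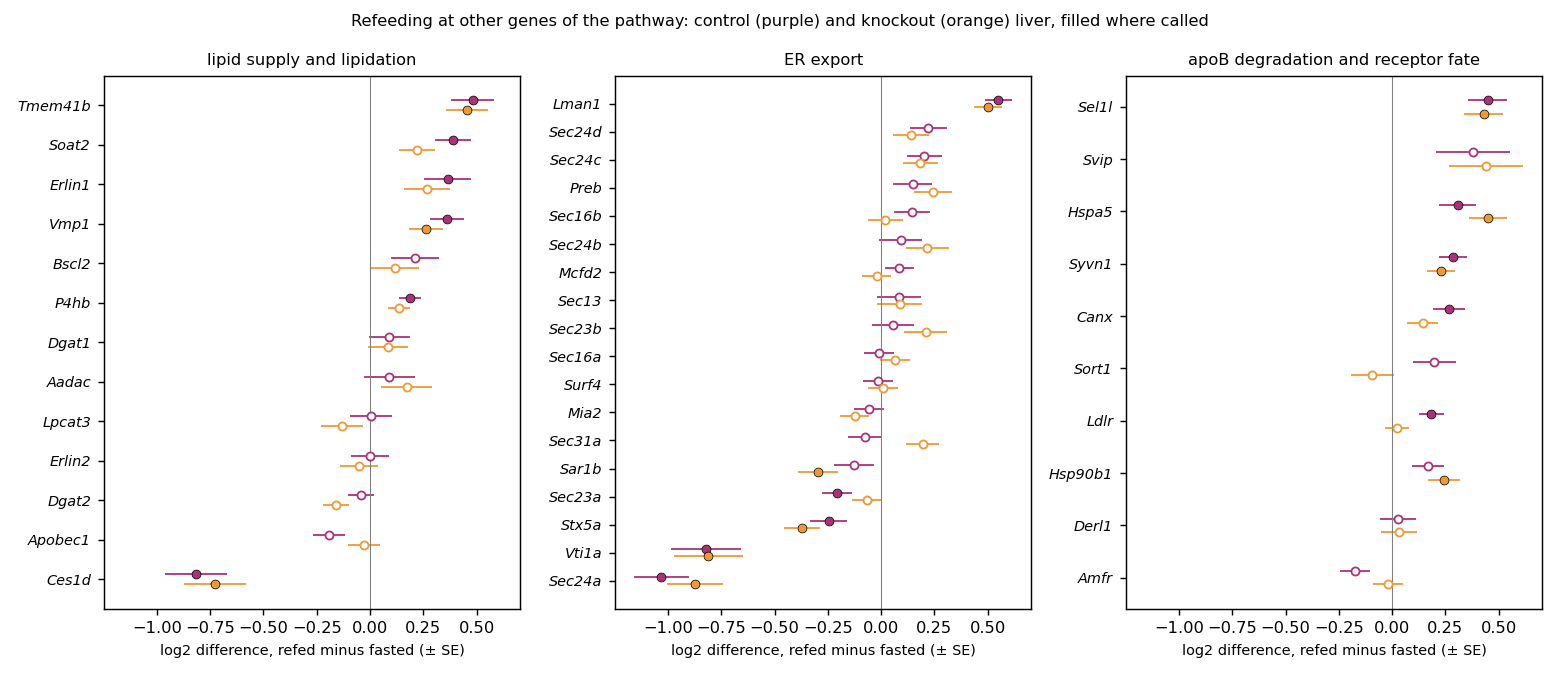
Log2 difference of refed minus fasted liver (x axis) with SE for the strongest region of each pathway gene, in control and knockout liver, filled where called. Of the genes drawn, Lman1 lies farthest to the right in both genotypes, and Sec24a, Vti1a and Ces1d lie farthest to the left.

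Regions assigned to markers of other cells also moved with refeeding. Of all regions 30% were called with refeeding in control and 24.7% in knockout liver. In control liver the shares called were 100% of cholangiocyte, 40% of endothelial, 33.3% of hepatocyte, 20% of stellate and 0% of Kupffer regions. In knockout liver these shares were 66.7%, 20%, 50%, 40% and 25%. The lists are short, so 1 region moves a share far. Assignment is by nearest start, not by contact, and a gene named here stands for its region. Of these regions 1 of 3 cholangiocyte, 1 of 5 endothelial, 3 of 5 stellate, 0 of 4 Kupffer and 4 of 6 hepatocyte ones spanned the start. Among those called, the regions of Epcam, Spp1, Stab2, Kdr, Reln, Col1a1, Csf1r, Cps1 and Alb did not span it. The regions assigned to the cholangiocyte genes Epcam, Sox9 and Spp1, the 3 of 5 that had one, were higher in control liver (1.00, 0.51 and 0.51). The summed level of the list ran from 1377 to 1603 in control fasted and from 1978 to 2457 in control refed libraries. Of 5 endothelial genes, Stab2 and Kdr were lower in control liver (-1.37 and -0.55), with sums of 5467 to 6106 fasted and 4189 to 4773 refed. Of 7 hepatocyte genes 6 had a region, and Tat and Cps1 were lower in control liver, with sums of 39928 to 47437 fasted and 36436 to 41991 refed. Of 5 stellate genes Reln was higher, and of 4 Kupffer genes none was called in control liver. Stellate sums there ran from 839 to 1084 fasted and 1177 to 1202 refed. Kupffer sums ran from 402 to 554 fasted and 429 to 520 refed. In knockout liver Epcam and Spp1 were higher (1.56 and 0.47), as were Csf1r, a Kupffer gene (0.45), and the stellate genes Col1a1 and Reln (0.78 and 0.82), while Tat, Cps1 and Alb (-0.50, -0.51 and -0.48) and Kdr (-0.29) were lower. There the sums ran from 1287 to 1864 fasted and 2155 to 2357 refed for cholangiocyte, from 4459 to 4944 and 4405 to 5059 for endothelial, and from 38371 to 42044 and 34190 to 35212 for hepatocyte genes. Stellate sums in knockout liver ran from 783 to 813 fasted and 915 to 1070 refed. Kupffer sums ran from 356 to 424 fasted and 472 to 576 refed. The part of these marker regions in the results for the 5 genes was not tested. In refed liver Hnf4a, a hepatocyte transcription factor gene, was the 1 called marker between genotypes, lower in knockout at 5324 ± 273 against 6423 ± 57.5 (-0.27 ± 0.05, limma adjusted p = 0.0229). Averaged over the feeding states Hnf4a and Alb were called lower in knockout (-0.22 and -0.34, adjusted p = 0.00926 and 0.0410).

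The regions of other genes most like each start region were found by Pearson's r of log2 values over the 12 libraries, which share group means and so are not independent. For Tm6sf2 they were Wdr4 (r = 0.97), Ubr2 and Plin3 (0.96 each), and for Mttp they were Xbp1 (0.98), Sdr42e1 and Ppp1r3b (0.96 each). Pla2g12b was most like Zfp784 (0.96), B9d1 (0.94) and Use1 (0.93), Apob like Erbb4, E2f7 (0.90 each) and Cyp2d22 (0.89), and Cideb like Serinc5, Seh1l and Dnajc27 (0.88 each). Among the 5 members themselves r ran from 0.38 for Apob with Cideb to 0.74 for Mttp with Tm6sf2.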

How the data were processed

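Signal values of 12 H3K27ac libraries, in 4 groups of 3, were used as the authors deposited them, and 12 input libraries were not used here. Each signal is a whole number of reads (to within 0.01) over 1 factor per library. Per the submitters' processing notes, reads were processed on mm9 with Bowtie2 and SAMtools, and MACS2, DiffBind, edgeR and HOMER are among the other tools; for their versions and for input subtraction nothing is given in these sources. Per the file headers regions were annotated with HOMER. The log2 folds, p-values and false discovery rates of other columns are the authors', deposited for regions they called. The GATA4 peaks, deposited for 5292 regions, come from no library of this series.

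The main test was limma 3.58.1 (R 4.3.3) run on log2-transformed signal (pseudocount 1) with an intensity trend, all 12 libraries in 1 fit and no covariate. Contrasts were the genotype difference in each feeding state and averaged, refeeding in each genotype, and the interaction. A region was called at p under 0.05 after Benjamini-Hochberg adjustment across 63686 regions. Intervals are 95% from the moderated fit, and cover the spread between libraries. Reads per library in regions (22.2 to 30.4 M) limit the weak regions most. Alternatives were pseudocounts of 5 and 0.5, dropping the lowest 10% of regions, median-ratio and quantile scaling, fits of 2 groups, edgeR 4.0.16 on recovered reads, each library left out and, for pathway genes, the region nearest the start. Replicates differed beyond counting noise.

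Members and lists were chosen with earlier results of these data known. Pathway genes named are up to 4 per list and contrast with the smallest adjusted p among those called, of which 1 is not reported here and stays in the counts; likeness took the 3 regions of other genes with the highest r.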

Additional observations from a re-analysis of the deposited data

How the results depend on the processing

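Of 18 called results of the 5 genes, 7 kept their call in every alternative that included their region. The other 11 lost it in at least 1, and none reversed. The 7 are Tm6sf2 with refeeding in both genotypes, Apob 101.4 kb before the start in both, and Apob 46.7 kb before (knockout), 43.2 kb after and 112.3 kb after the start (control). The weak region at 46.7 kb, with a mean of 20.2, had 19 alternatives, since dropping the lowest 10% of regions removes it. Low read numbers limit the 12 Apob regions with means under 50.

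For all regions, knockout against control in fasted liver gave 355 calls, and 59 with only the 2 groups fitted. In refed liver 1289 became 702 with median-ratio scaling, 324 with quantile normalization, 673 with only 2 groups, 607 with edgeR and TMM and 589 with edgeR and median-ratio factors; member regions called went from 1 to 2 under these except quantile. The interaction went from 15 to 28 with a pseudocount of 5. The genotype mean went from 2473 to 1289 with quantile normalization, with 0 member regions; its 1 pathway gene became 0 with median-ratio, quantile, edgeR with TMM and the region nearest the start. Fits of only 2 groups cannot give the interaction or the mean.

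Leaving out each library gave 105 to 918 regions in fasted liver (lowest without knockout fasted replicate 1), 365 to 1423 in refed liver (lowest without knockout refed replicate 1) with 0 to 2 members, 4 to 9 members for refeeding in knockout liver, 9 to 148 regions in the interaction, and 891 to 2545 regions, 0 to 2 members and 0 to 2 pathway genes for the mean.

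Uncalled values changed sign: in fasted liver Cideb was 0.00558 with quantile normalization and Tm6sf2 -0.0532 and -0.0641 with edgeR (TMM and median-ratio factors); refeeding of the Apob start region in knockout liver was -0.00467 with edgeR and TMM; and with quantile normalization the interaction was 0.0401 for Apob and 0.00346 for Mttp. Leave-one-out ranges were -0.279 to 0.247 for Tm6sf2 and -0.0398 to 0.0432 for Cideb in fasted liver, -0.0616 to 0.0259 for Pla2g12b refeeding in knockout liver, and -0.0424 to 0.0249 for Apob and -0.0692 to 0.0192 for Mttp in the interaction. The cause of these changes was not tested. No paired analysis was possible because the labels give no replicate numbers shared between groups.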
